A study of Mus musculus with 29 samples.

Results

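Conventional CD4 T cells (Tcon) cultured for 72 h with TGF-beta in medium without lactic acid are set here against Tcon cultured the same way without TGF-beta. The members are the libraries whose labels give this cell type, time and medium: 3 with TGF-beta and 2 without, which makes 5 of the 29 libraries of the series. The cells came from spleens of C57BL/6-Foxp3tm1Flv/J mice, which carry a red fluorescent protein (RFP) reporter in the Foxp3 gene, whose product is the defining transcription factor of regulatory T cells. All cultures of both groups held anti-CD3 at 1.25 ug/ml, anti-CD28 at 2.5 ug/ml, IL-2 at 50 IU/ml and glucose at 0.5 mM, and the TGF-beta cultures also held TGF-beta at 3 ng/ml. CD4+ cells without the RFP reporter were sorted at the end, a gate that leaves out cells of the TGF-beta cultures that had turned the reporter on. Replicate 1 of each group came from male mice and the other replicates from female mice. No source used here says that replicates 2 and 3 came from separate animals, so p-values measure the spread between libraries, which may be technical in part. That spread was estimated from all 29 libraries of the series together and not from these 5 alone.

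TGF-beta binds a type II receptor (Tgfbr2), which activates a type I receptor (Tgfbr1), and the pair phosphorylates Smad2 and Smad3. These join Smad4 and act on target genes in the nucleus, among them inhibitors of the pathway itself such as Smad7, Ski and Skil. In CD4 T cells TGF-beta is known for inducing Foxp3 together with IL-2, for restraining the Th1 and Th2 effector programmes, and for inducing the integrin chain CD103 (Itgae), which binds E-cadherin.

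The 5 libraries held 11588148 to 13150907 gene counts. Expression is given as CPM, which are counts scaled to library size, and a gene is called where the adjusted p of edgeR's quasi-likelihood test over all genes tested is below 0.05. Fold changes are log2 values of TGF-beta over no TGF-beta, given with their standard error (SE). Libraries of the same group correlated at r = 0.972 to 0.991 over genes and libraries of different groups at 0.939 to 0.959. In a principal component analysis of the 5 libraries, the groups were separated on component 1 (58.6% of the variance). Component 2 (29.6%) set apart both replicate 1 libraries (45.8 with TGF-beta and 33.3 without) from the remaining 3 libraries, which lay between -41.8 and -14.8. The group without TGF-beta therefore holds 1 library of each kind. Its libraries are also called control replicates 1 and 2 below, and those with TGF-beta are called TGF-beta replicates 1 to 3. Cd4 ran from 562.5 to 584.2 CPM with TGF-beta, against 615.9 and 668.7 CPM without it, and was not called (adjusted p = 0.139). The defining myeloid genes Lyz2, Csf1r, Cd14, S100a8 and C1qa were at 0 or below 0.1 CPM in all 5 libraries. Of 16 myeloid markers 3 passed the filter, 1 called higher and 1 lower (2 lower without TGF-beta replicate 1 and none without control replicate 1), and the list summed to 39 to 42.3 CPM with TGF-beta, against 48.2 and 84 CPM without it. Mpeg1 was the marker called higher, at 6.57, 7.81 and 9.74 CPM with TGF-beta, against 0.428 and 1.38 CPM without it (log2 fold change 3.11, adjusted p = 3.59e-06). Cst3 was called lower, at 26.95, 31.25 and 28.83 CPM, against 78.73 and 40.38 CPM. Its fold change was -1.04, and -0.458 without control replicate 1, and it held most of the sum in each library. Cd68 was not called. B cell markers summed to 86.6 to 107 CPM with TGF-beta, against 86.9 and 127 CPM without it.

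TGF-beta changed the transcriptome of these cells widely: of 14375 genes tested, 3517 were called (24.5%), 1834 of them higher (12.8%) and 1683 lower (11.7%). At least a 2-fold change was seen for 775 of the genes called higher (5.39% of those tested) and 702 of those called lower (4.88%). In 3512 of the 3517 called genes, both same-numbered pairs of libraries moved in the direction of the call. The calls rest on these same libraries, so this is no separate check, and its share over all genes tested was not computed. In 3375 of the called genes (23.5% of those tested) the libraries of the groups did not overlap, which held for 5829 genes (40.5%) of all tested. With the replicate number as a block, 6526 genes were called (45.4%), 3068 higher (21.3%) and 3458 lower (24.1%), and all 3517 genes kept their call and direction. The same block fitted on the 5 libraries alone called 4601 genes, among them 3043 of the 3517. Without both replicate 1 libraries 2600 genes were called, and with the 5 libraries fitted on their own, without a block, 1058. Among the genes named below, that fit lost the calls of Tgfb1, Furin, Lrrc32, Ltbp3, Tgfbr2, Acvr1, Bmpr2, Smad1, Smad4, Ski, Klf10, Ccn2, Socs2, Eomes, Gata3, Pparg, Il17f, Il6, Cd8a, Klrk1, Klrd1, Gzmk, Bcl2a1b, Hspa5 and Hk1, with adjusted p of 0.051 to 0.144. The fit on the 72 h libraries alone lost those of Eomes, Il6 and Hspa5 (0.117, 0.054 and 0.0683). Without replicate 2 of the cultures lacking TGF-beta the genes called higher numbered 1162. In bulk RNA a lower level in every cell and a smaller share of expressing cells cannot be told apart, which holds for every value below.

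Receptors of TGF-beta and some of the genes that damp its signal rose. Of 15 receptors and Smads tested, 9 rose and none fell, with a median log2 fold change of 0.68, against -0.03 over all genes tested. Of 25 feedback and direct target genes, 11 rose and 1 fell, with a median of 0.61. Called or not, 16 of them had a positive fold change and 9 a negative one, from -1.55 to 7.66. The feedback genes named below are among those that rose. Without control replicate 2, 5 of the receptors and Smads were called higher. The feedback genes called lower were 5 with the replicate block, 3 without control replicate 2, 2 without TGF-beta replicate 1 and none without control replicate 1 or TGF-beta replicate 2. Of 11 ligand and activation genes, 3 rose and 1 fell, and 6 and 2 with the replicate block. These lists, like the others below, are small sets of known genes, and their counts are descriptions. Over all genes tested 24.5% were called, and 45.4% with the replicate block, so a higher count under the block is not particular to a list.

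The type I receptor Tgfbr1 stood at 193.0, 192.1 and 212.6 CPM with TGF-beta, against 39.0 and 37.2 CPM without it. All 3 libraries with TGF-beta lay far above both without, by 2.38 ± 0.16 (log2, SE; adjusted p = 1.83e-10). The type II receptor Tgfbr2 had 181.7, 164.2 and 142.6 CPM with TGF-beta, against 106.0 and 67.2 CPM without it (0.91 ± 0.19). The co-receptor Tgfbr3, also called betaglycan, had 163.2, 192.1 and 204.6 CPM, against 71.4 and 79.4 CPM (1.31 ± 0.13, adjusted p = 1.34e-07). Receptors of other ligands of the superfamily rose as well. The activin type I receptor Acvr1b rose by 1.59 ± 0.13, the activin type II receptor Acvr2a by 1.74 ± 0.24, the BMP type II receptor Bmpr2 by 1.27 ± 0.24 (1.92 without control replicate 1 and 0.83 without control replicate 2) and Acvr1 by 1.07 ± 0.29. The Smads moved less. Smad4, the common partner, had 89.6, 82.3 and 77.9 CPM with TGF-beta, against 66.3 and 54.1 CPM without it (0.47 ± 0.12), and Smad1, which serves BMP receptors, rose by 0.66 ± 0.18. Smad2, Smad3 and Smad5 were not called, at 0.08 ± 0.09, -0.15 ± 0.18 and 0.15 ± 0.13. Without replicate 2 of the group lacking TGF-beta the calls of Tgfbr2, Acvr1, Smad1 and Smad4 were lost, with adjusted p of 0.0523, 0.16, 0.212 and 0.148.

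Among the feedback genes with counts in every library, Ldlrad4 changed most. Its product binds and holds back receptor-activated Smads. Ldlrad4 had 81.1, 76.4 and 60.6 CPM with TGF-beta, against 4.79 and 1.84 CPM without it (4.47 ± 0.29, adjusted p = 1.59e-10). Pmepa1, a relative of Ldlrad4 with the same role, had 89.9, 114.1 and 126.9 CPM, against 15.8 and 29.6 CPM (2.28 ± 0.24). Smad7, the inhibitory Smad, had 59.2, 52.1 and 46.6 CPM, against 20.4 and 12.5 CPM (1.68 ± 0.26, adjusted p = 4.44e-05). In each of these genes every library with TGF-beta exceeded both without. The Smad co-repressor Skil had 408.4, 309.5 and 337.1 CPM, against 156.1 and 95.2 CPM (1.49 ± 0.20). Its relative Ski had 189.1, 243.2 and 220.7 CPM, against 118.9 and 170.0 CPM (0.59 ± 0.18, adjusted p = 0.0178). The ubiquitin ligases Smurf1 and Smurf2, which target receptors and Smads for breakdown, rose by 1.34 ± 0.17 and 0.75 ± 0.10, and the early target Klf10 by 1.25 ± 0.26. The inhibitory Smad6 had 22 counts over the 3 libraries with TGF-beta and 0 over those without, at least 4.82-fold higher against a floor of 3 counts over the group, which covers counting error only. Smad6 was not among the genes tested in the fits on the 5 libraries alone or without TGF-beta replicate 2, so its call could not be checked there. Ccn2, a matrix-associated growth factor, had 78 counts with TGF-beta and 0 without, at least 17.1-fold higher. The call of Ski was lost without replicate 2 of the TGF-beta group (adjusted p = 0.0722) and without replicate 1 of the other group (0.212, with a fold change of 0.38). The calls of Klf10 and Ccn2 were lost without replicate 2 of the cultures lacking TGF-beta (0.068 and 0.0775), and that of Ccn2 also without replicate 1 of those cultures (0.0561).

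On the ligand side, Tgfb1, the ligand made by T cells, had 312.4, 334.7 and 310.6 CPM with TGF-beta, against 225.6 and 260.2 CPM without it (0.39 ± 0.10, adjusted p = 0.00539). Furin, the protease that matures the TGF-beta precursor, rose by 0.60 ± 0.14. Lrrc32, also called GARP, which tethers latent TGF-beta to the cell surface, had 24.7, 93.7 and 82.1 CPM with TGF-beta, against 1.63 and 12.7 CPM without it (3.20 ± 0.76, adjusted p = 0.00296). The replicate 1 library was the lowest of each group, and every library with TGF-beta still exceeded both without. The fold change was 2.42 without control replicate 1 and 5.34 without control replicate 2. Ltbp3, a latent TGF-beta binding protein, fell to 2.47, 1.88 and 1.58 CPM, against 13.1 and 3.3 CPM without TGF-beta (-2.04 ± 0.59). Leaving out replicate 1 of the cultures lacking TGF-beta ended the calls of Tgfb1 (adjusted p = 0.0762) and Ltbp3 (0.486, with a fold change of -0.72), and leaving out their replicate 2 ended that of Furin (0.142).

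**Figure D1:**
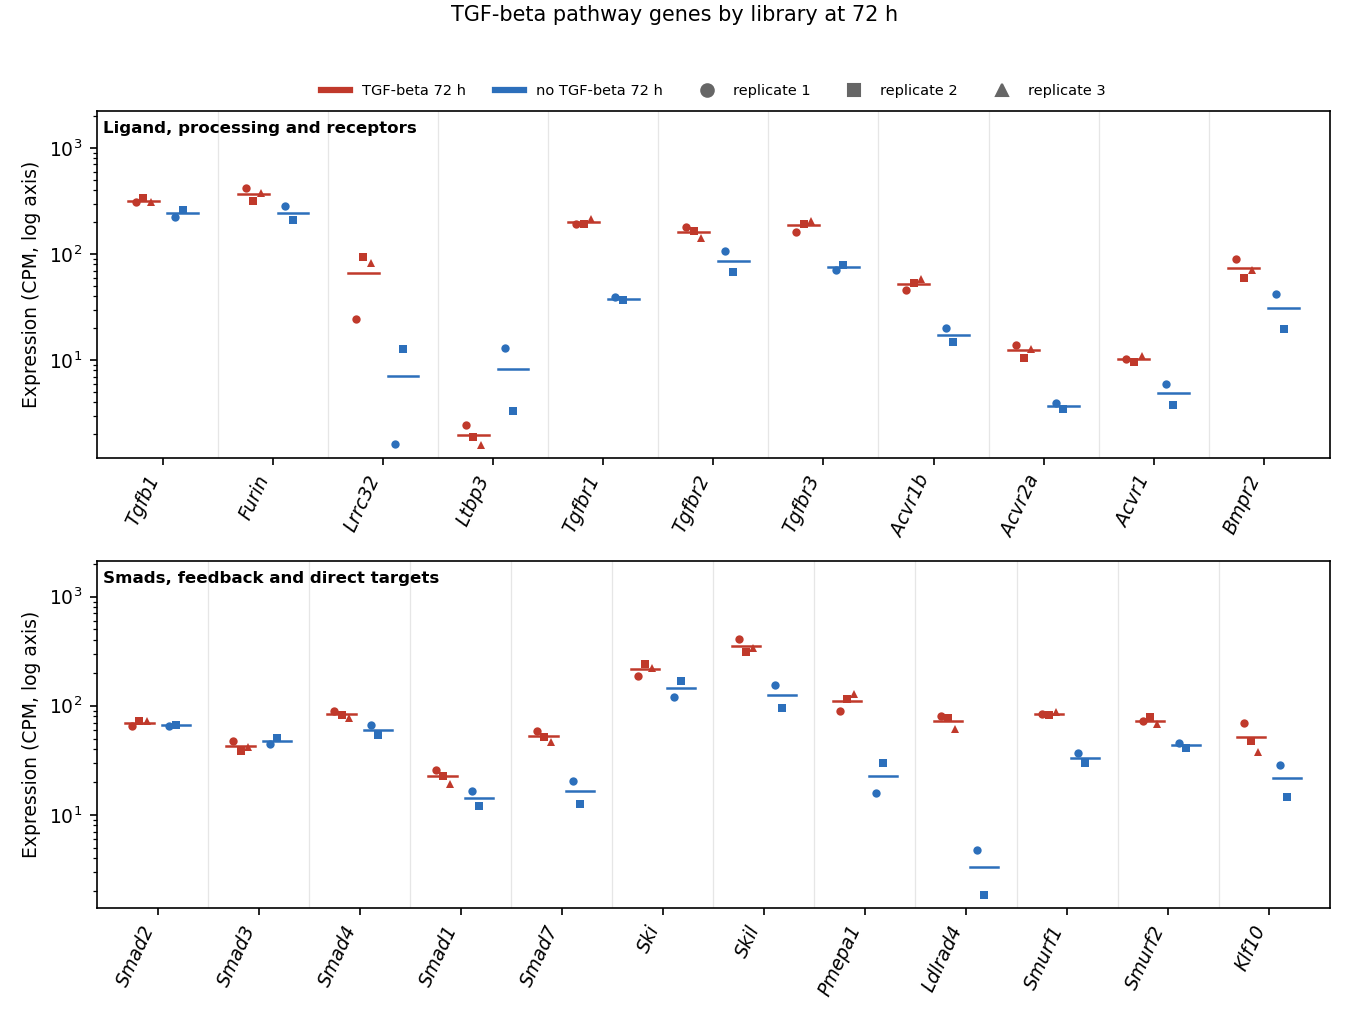
Expression in CPM on a log axis of TGF-beta pathway genes in each library at 72 h, with TGF-beta in red on the left and without it in blue on the right, marker shapes for the replicate numbers and bars for the group means. Tgfbr1, Ldlrad4 and Pmepa1 are separated widely between the groups, Smad2 and Smad3 overlap, and Ltbp3 is lower with TGF-beta.

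Activated Smads bind the short element CAGAC, and the palindrome GTCTAGAC is their full site. Both were searched on both strands, allowing overlaps, in the RefSeq promoters of build GRCm38.p6, which run from 250 bases before a gene's start to 50 after it. CAGAC was in 49.6% of all 32851 promoters and in 47.3% of the 12607 promoters of genes tested. It was in 46.3% of the 1864 promoters of genes called higher and in 49.1% of the 1571 of genes called lower. GTCTAGAC was in 0.213% of all promoters and in 0.254% of those of genes tested. It was in 4 promoters of genes called higher (0.215%) and in 1 of genes called lower (0.0637%). A match is a description of letters and not a bound site, and target sites of TGF-beta genes often lie outside such a window. The promoters below, chosen after the search, belong to a feedback gene, a gene with one of the largest rises, Foxp3 at the first of its 2 listed starts, and Runx3 at the second of its 2 listed starts, whose promoter holds the palindrome. The other Foxp3 start had no match to either element, and the other Runx3 start had CAGAC but not the palindrome. Capitals mark CAGAC or its complement GTCTG, and the palindrome in Runx3.
Smurf1 promoter, chr5:144965781-144966080, minus strand: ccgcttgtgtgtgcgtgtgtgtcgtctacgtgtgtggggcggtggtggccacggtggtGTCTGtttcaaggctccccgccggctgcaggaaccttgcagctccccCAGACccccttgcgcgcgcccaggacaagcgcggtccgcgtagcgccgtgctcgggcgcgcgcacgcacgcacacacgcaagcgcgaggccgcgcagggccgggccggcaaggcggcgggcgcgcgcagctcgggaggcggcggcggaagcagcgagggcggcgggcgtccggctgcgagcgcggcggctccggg
Nt5e promoter, chr9:88327359-88327658, plus strand: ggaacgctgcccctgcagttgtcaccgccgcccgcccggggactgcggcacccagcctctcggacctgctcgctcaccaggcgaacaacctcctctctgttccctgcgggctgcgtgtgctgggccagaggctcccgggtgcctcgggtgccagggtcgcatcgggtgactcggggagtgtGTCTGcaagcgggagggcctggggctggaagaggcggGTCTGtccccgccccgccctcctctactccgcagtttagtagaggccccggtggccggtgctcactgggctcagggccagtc
Foxp3 promoter, chrX:7579426-7579725, plus strand: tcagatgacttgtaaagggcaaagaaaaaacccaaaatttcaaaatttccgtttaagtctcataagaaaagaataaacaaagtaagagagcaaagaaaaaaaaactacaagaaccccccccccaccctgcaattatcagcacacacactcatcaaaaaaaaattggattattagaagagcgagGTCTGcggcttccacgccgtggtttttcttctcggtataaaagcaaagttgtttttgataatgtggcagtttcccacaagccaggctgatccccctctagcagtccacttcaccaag
Runx3 promoter, chr4:135152295-135152594, plus strand: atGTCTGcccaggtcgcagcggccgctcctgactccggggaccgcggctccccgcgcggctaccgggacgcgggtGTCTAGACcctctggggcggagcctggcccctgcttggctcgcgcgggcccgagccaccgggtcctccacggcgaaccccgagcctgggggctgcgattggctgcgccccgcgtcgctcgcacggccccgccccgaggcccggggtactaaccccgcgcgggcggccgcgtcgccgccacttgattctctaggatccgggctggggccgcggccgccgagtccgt

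Among the 10 largest rises of protein-coding genes with at least 5 CPM on average and no overlap were those of Cdh1, Foxp3, Aqp3, Drc1, Itgae, Nt5e, Il1a, Tmem273 and Tead1. Cdh1, which encodes the epithelial adhesion protein E-cadherin, had 32.0, 78.6 and 69.0 CPM with TGF-beta, against 0.77 and 0.077 CPM without it (7.17 ± 0.87, adjusted p = 1.53e-06). Itgae, the CD103 integrin chain that binds E-cadherin, had 74.8, 55.0 and 37.9 CPM, against 1.46 and 0.614 CPM (5.77 ± 0.38, adjusted p = 1.59e-10). Both genes were near 0 in the 2 libraries without TGF-beta. Foxp3 had 15.4, 35.6 and 19.2 CPM with TGF-beta, against 0 and 0.307 CPM without it (7.09 ± 0.65, adjusted p = 2.44e-08). Over the libraries Foxp3 had 885 counts with TGF-beta and 4 without, a ratio of 145 with an exact 95% interval of 56.6 to 535 for counting error, and its fold change was 6.22 without control replicate 1 and 11.14 without control replicate 2. This Foxp3 RNA was in cells sorted as negative for the Foxp3 reporter. Whether some reporter-positive cells passed the sort was not tested, and bulk RNA cannot tell their part from that of negative cells. Nt5e, the ecto-enzyme CD73 that makes adenosine from AMP, had 199.6, 133.3 and 139.5 CPM, against 5.05 and 0.998 CPM (5.73 ± 0.46). The water and glycerol channel Aqp3 rose by 6.44 ± 0.46, the ciliary dynein regulatory complex gene Drc1 by 5.84 ± 0.67, the cytokine gene Il1a by 5.65 ± 1.03 and Tead1, the partner of the YAP coactivator, by 5.30 ± 0.38. Cdh1, Aqp3 and Il1a had only 10, 5 and 4 counts without TGF-beta. Exact 95% intervals of their ratios for counting error were 80.9 to 311, 39.1 to 283 and 20.9 to 199. The fold change of Cdh1 was 9.44 without control replicate 1 and 6.25 without control replicate 2, and that of Aqp3 was 7.75 and 5.71.

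The 10 largest falls were in Col5a3, Slc13a3, Ehd2, Otx1, Dnah12, Serpinf1, Kcnk10, Tg, Epas1 and Ajuba. Col5a3, a collagen chain, fell to 0.247, 0.078 and 0.238 CPM with TGF-beta, against 46.0 and 12.5 CPM without it (-7.22 ± 0.64, adjusted p = 3.26e-08). The dicarboxylate transporter Slc13a3 fell to 2.05, 0.703 and 0.792 CPM, against 58.7 and 32.3 CPM (-5.26 ± 0.46). Epas1, which encodes the hypoxia-inducible factor HIF-2 alpha, had 4.35, 4.45 and 3.88 CPM with TGF-beta, against 75.6 and 86.0 CPM without it (-4.25 ± 0.23, adjusted p = 4.78e-12). Ajuba, a LIM-domain adaptor at cell junctions, had 5.01, 3.44 and 7.05 CPM, against 70.6 and 116.9 CPM (-4.18 ± 0.30). In each of these genes both libraries without TGF-beta lay well above all 3 with it. Tg, the thyroglobulin gene, fell by 4.26, the homeobox gene Otx1 by 5.06, the potassium channel gene Kcnk10 by 4.46 and the secreted serpin gene Serpinf1 by 4.50 on the log2 scale.

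**Figure D2:**
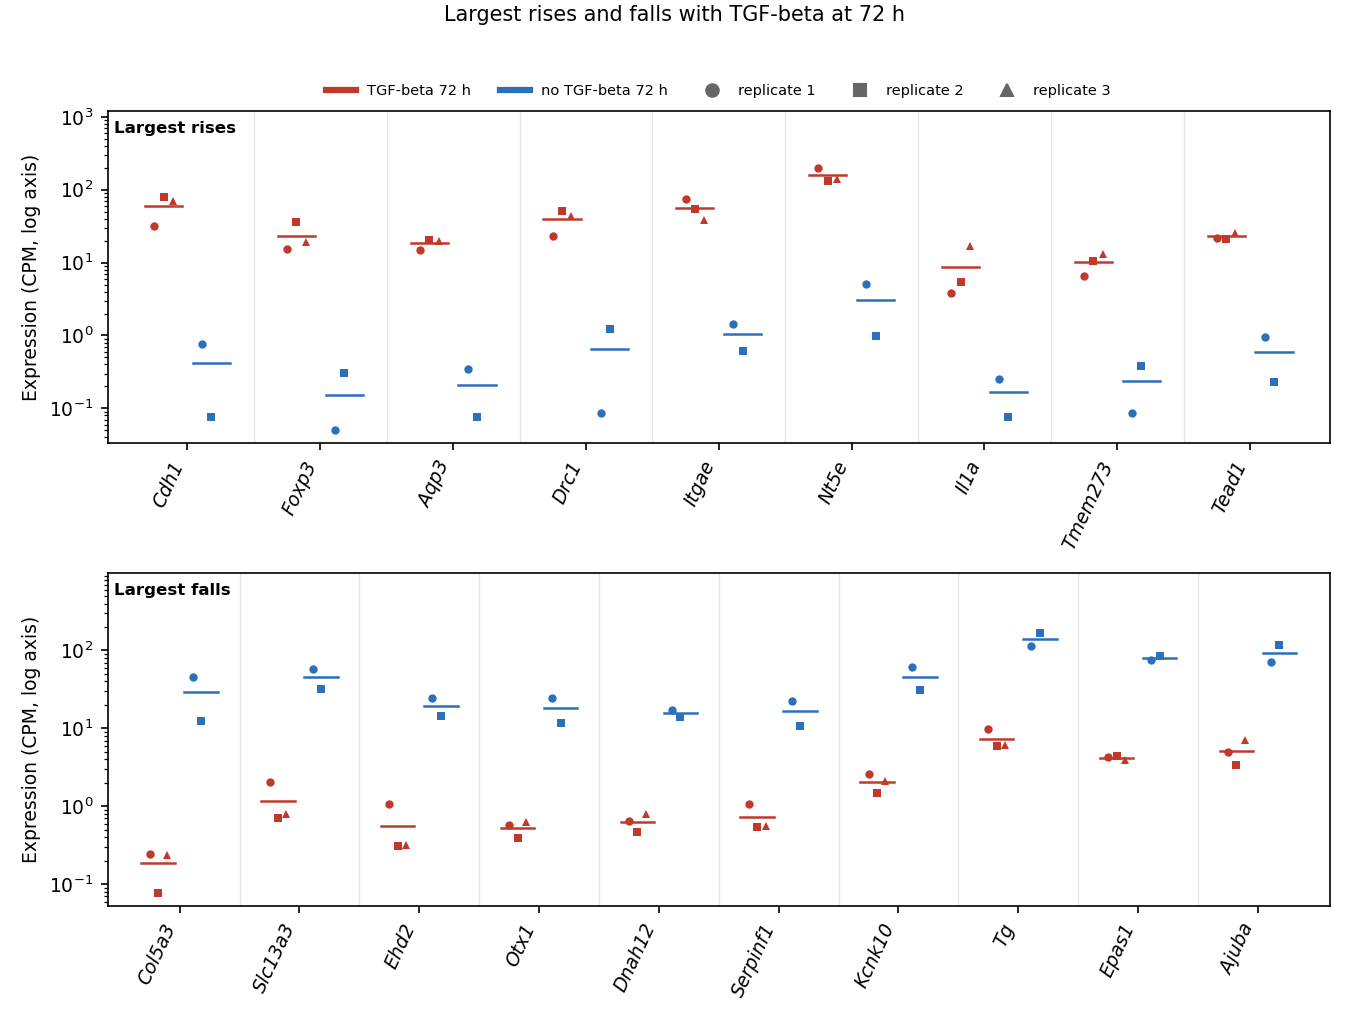
Expression in CPM on a log axis of 9 of the 10 genes with the largest rises and the 10 with the largest falls at 72 h, by library, with TGF-beta in red on the left and without it in blue on the right. Libraries at 0 are drawn at 0.05 CPM. In none of the 19 genes do the libraries of the groups overlap, which the choice of genes required.

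Regulatory T cell genes rose in these libraries of cells sorted as negative for the reporter. Of 26 tested, 14 rose and 2 fell, with a median of 0.74. Without both replicate 1 libraries the counts were again 14 and 2. Besides Foxp3, Itgae, Nt5e and Lrrc32, the list holds Entpd1, the ecto-enzyme CD39 that hydrolyses ATP, at 35.3, 45.9 and 39.7 CPM with TGF-beta, against 3.42 and 3.38 CPM without it (3.56 ± 0.22, adjusted p = 3.95e-11). Ikzf2, which encodes Helios, had 130.6, 95.3 and 76.6 CPM, against 26.8 and 17.0 CPM (2.20 ± 0.25), and Ikzf4, which encodes Eos, rose by 2.73 ± 0.31. The 2 libraries without TGF-beta lay below all 3 with it in each of these genes. Socs2, an inhibitor of cytokine signalling, rose by 3.45 ± 0.56, and by 5.68 without control replicate 2. Tigit, an inhibitory receptor of regulatory and exhausted T cells, moved the other way, at 6.08, 3.75 and 6.97 CPM with TGF-beta, against 65.1 and 42.6 CPM without it (-3.26 ± 0.28, adjusted p = 1.01e-08), and so did Ebi3, a subunit of IL-35 (-1.59 ± 0.28). Il2ra, the high-affinity IL-2 receptor chain, had 1386, 2065 and 2228 CPM, against 1220 and 1682 CPM (0.38 ± 0.23), and overlapped between the groups. Il2ra was called higher with the replicate block on the 5 libraries alone (0.26, adjusted p = 0.0481). Ctla4 had 143.2, 212.9 and 194.9 CPM, against 257.8 and 184.5 CPM (-0.27 ± 0.19), and it too was not called.

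Adhesion and tissue residency genes changed in both directions: 9 of 19 tested rose and 5 fell, with a median of 0.48. Beside Itgae and Cdh1, the partner chain Itgb7 had 183.8, 182.4 and 138.8 CPM with TGF-beta, against 78.7 and 96.5 CPM without it (0.94 ± 0.23, adjusted p = 0.00359; 0.106 without both replicate 1 libraries). The residency factor Zfp683, also called Hobit, rose by 3.02 ± 0.57, and Klf2, which drives exit from tissues and has the opposite role, rose by 4.19 ± 0.71, with 23.7, 23.7 and 11.0 CPM, against 1.46 and 0.691 CPM. The beta-1 integrin chain Itgb1 had 210.9, 224.3 and 252.7 CPM, against 725.2 and 653.9 CPM (-1.59 ± 0.10, adjusted p = 9.98e-11), and its partner Itga4 fell by 1.73 on the log2 scale. Ccr7, the receptor that leads cells into lymph nodes, had 485.1, 460.5 and 401.5 CPM, against 212.5 and 219.5 CPM (1.06 ± 0.12). Among 29 matrix, cytoskeleton and junction genes, 7 rose and 5 fell (3 fell without control replicate 2, and 10 rose and 8 fell with the replicate block). The share of these 29 genes called was 41.4%, and 62.1% with the replicate block, against 24.5% and 45.4% over all genes. The intermediate filament gene Vim reached 3096, 3610 and 3162 CPM with TGF-beta, against 292.7 and 346.8 CPM without it (3.36 ± 0.22, adjusted p = 1.83e-10), and Timp2, an inhibitor of matrix proteases, rose by 1.88 ± 0.21.

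Genes of the helper lineages moved in both directions. Of 17 Th1 genes tested, 9 rose and 6 fell, and of 17 Th2 genes 4 rose and 7 fell. Of 17 Th17 genes, 4 rose and 2 fell. Without control replicate 2 only 1 Th17 gene was called higher, and of the Th2 genes 1 was called higher and 4 lower. The Th2 genes called higher were also 1 without control replicate 1 and 2 without TGF-beta replicate 2 or 3. Tbx21, the Th1 master regulator T-bet, had 61.6, 57.7 and 66.1 CPM with TGF-beta, against 124.9 and 171.1 CPM without it (-1.26 ± 0.15, adjusted p = 1.6e-06). The IL-12 receptor chain Il12rb1 had 119.6, 94.9 and 99.2 CPM, against 236.6 and 315.0 CPM (-1.40 ± 0.14), and Stat4, which relays IL-12, fell by 1.34 on the log2 scale. Receptors of IL-18, which acts beside IL-12 in Th1 cells, rose: Il18r1 had 82.3, 81.2 and 69.9 CPM, against 3.68 and 1.46 CPM (4.93 ± 0.51, adjusted p = 1.51e-07), and Il18rap rose by 2.01 ± 0.34. Ifng was not called, at 59.5, 101.7 and 219.3 CPM, against 65.5 and 31.3 CPM (1.39 ± 0.54, adjusted p = 0.0628). Its highest library with TGF-beta was well above the rest, and it was called higher with the replicate block.

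Gata3, the Th2 master regulator, had 60.7, 63.0 and 60.1 CPM with TGF-beta, against 76.2 and 174.5 CPM without it (-1.03 ± 0.23, adjusted p = 0.00209). Both libraries without TGF-beta were higher, but only the second by much, and without it the fold change was -0.32 (adjusted p = 0.401). Il5 fell to 1.64, 1.72 and 1.27 CPM, against 8.13 and 24.3 CPM (-3.39 ± 0.48), and Il13 to 9.61, 12.2 and 25.7 CPM, against 58.5 and 171.6 CPM (-2.86 ± 0.47, adjusted p = 7.97e-05). Without control replicate 2 the fold change of Il13 was -1.89. Pparg, a nuclear receptor of Th2 cells, fell by 2.66 on the log2 scale. Of the Th17 genes, Ahr, an aryl hydrocarbon receptor that Th17 cells use, had 40.8, 37.4 and 38.8 CPM, against 5.91 and 6.83 CPM (2.61 ± 0.18, adjusted p = 2.51e-10), and Batf, an AP-1 factor needed for Th17 cells, had 22, 21.3 and 19.8 CPM, against 65.1 and 110.2 CPM (-2.06 ± 0.18). Il17a stayed below 1 CPM in all 5 libraries and was not called. Il17f had 51 counts over the libraries with TGF-beta and 1 count over those without, a ratio of 33.5 with an exact 95% interval of 5.75 to 1350 for counting error, and its call was lost without replicate 2 of the cultures lacking TGF-beta (adjusted p = 0.0614).

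Of 28 secreted cytokine genes tested, 11 fell and 6 rose. Il2, the T cell growth factor, had 25.8, 7.66 and 10.2 CPM with TGF-beta, against 224.6 and 184.8 CPM without it (-3.82 ± 0.56, adjusted p = 1.86e-05). Csf2, which encodes GM-CSF, had 14.7, 10.6 and 16.1 CPM, against 123.3 and 125.4 CPM (-3.17 ± 0.24, adjusted p = 1.45e-09). Il3 had 7.23, 5.0 and 8.0 CPM, against 74.8 and 35.1 CPM (-3.02 ± 0.49), Csf1 fell by 3.36 and Il21, the cytokine of follicular helper and Th17 cells, by 3.15 on the log2 scale. In these genes no library with TGF-beta came near the lower library without it. The lymphotoxin genes rose: Lta had 548.6, 736.7 and 853.6 CPM, against 145.6 and 142.9 CPM (2.31 ± 0.21), and Ltb had 403.2, 457.2 and 416.6 CPM, against 96.8 and 79.1 CPM (2.28 ± 0.13, adjusted p = 1.34e-11). Il9, which TGF-beta induces together with IL-4 in Th9 cells, had 13.1, 34.3 and 53.6 CPM, against 0.171 and 2.23 CPM (4.76 ± 0.76, adjusted p = 5.43e-05; 7.52 without control replicate 2). Il10 was not called, at 6.82, 7.35 and 12.5 CPM, against 15.9 and 12.1 CPM (-0.66 ± 0.38), and was called lower with the replicate block. Il6 was below 1.5 CPM in all 5 libraries and was called lower (-2.34, adjusted p = 0.0268), a call lost on leaving out any library but TGF-beta replicate 1 (0.0768 to 0.0935).

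Chemokine genes split evenly, with 4 rising and 4 falling of 10 tested, and without both replicate 1 libraries 5 rose and 1 fell. The chemokines called higher were 2 without TGF-beta replicate 3 or control replicate 2, and those called lower were 2 without TGF-beta replicate 2 and 1 without control replicate 1. Xcl1, a ligand for dendritic cells, had 49.5, 60.5 and 68.3 CPM with TGF-beta, against 2.82 and 2.00 CPM without it (4.63 ± 0.29, adjusted p = 8.51e-11), and Ccl20, the ligand of CCR6, had 19.5, 9.77 and 20.1 CPM, against 1.28 and 0.537 CPM (4.18 ± 0.59). Ccl22, the ligand of CCR4, fell by 2.55 on the log2 scale. Of 18 chemokine and trafficking receptors, 6 rose and 3 fell, with 10 higher under the replicate block, 3 without TGF-beta replicate 1 and 2 without control replicate 2. Cx3cr1, the fractalkine receptor, had 259 counts over the libraries with TGF-beta and none over those without, at least 56.8-fold higher against 3 counts over the group. Cxcr5, which leads cells into B cell follicles, fell to 1.73, 0.86 and 0.713 CPM, against 11.1 and 5.45 CPM without TGF-beta (-2.91 ± 0.42).

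Cytotoxic granule and death ligand genes also went both ways, with 5 rising and 6 falling of 16 tested. Gzmb, the granule protease granzyme B, had 59.5, 101.0 and 152.8 CPM with TGF-beta, against 505.8 and 432.9 CPM without it (-2.17 ± 0.33, adjusted p = 2.51e-05). The pore-forming gene Prf1 had 0.575, 1.02 and 1.51 CPM, against 12.8 and 4.91 CPM (-3.08 ± 0.49), and the death ligand Fasl had 10.4, 6.17 and 12.0 CPM, against 43.7 and 33.3 CPM (-2.01 ± 0.23). The granzyme inhibitors fell with them: Serpinb9 had 30.5, 30.1 and 33.4 CPM, against 167.0 and 179.8 CPM (-2.47 ± 0.18, adjusted p = 8.42e-10), and its relative Serpinb6b fell by 2.77 on the log2 scale. Ctsw, a protease gene of cytotoxic lymphocytes, rose to 222.2, 274.1 and 262.5 CPM, against 50.1 and 20.1 CPM without TGF-beta (2.85 ± 0.29, adjusted p = 1.01e-07).

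Genes of CD8 and natural killer cells moved alongside. Of 11 such markers, 7 passed the filter and 6 of these rose (2 without control replicate 2), and their summed level ran from 44.2 to 93.8 CPM with TGF-beta, against 26.3 and 33.1 CPM without it. Cd8a had 1.81, 12.8 and 13.9 CPM, against 0.257 and 0.461 CPM (4.68 ± 0.97, adjusted p = 0.000956), and its partner chain Cd8b1 had 6.82, 5.39 and 5.07 CPM, against 11.0 and 5.60 CPM, not called. The receptor genes Klrd1 and Klrk1 rose by 2.53 and 1.37, and Klrd1 by 3.94 without control replicate 1. The natural killer genes Ncr1, Klrb1c, Klra8 and Klra4 were at or below 0.231 CPM in all 5 libraries. Eomes, a T-box factor of cytotoxic cells, had 17.2, 50.4 and 45.9 CPM, against 12.1 and 15.5 CPM (1.46 ± 0.50, adjusted p = 0.0378). Gzmk, another granzyme gene, had 47 counts with TGF-beta and 2 without, a ratio of 15.5 with an interval of 4.05 to 131. The part of such cells in the results above was not tested. Leaving out 1 library ended the call of Eomes in 4 of 5 cases (adjusted p = 0.0923 to 0.161), that of Klrk1 without replicate 3 of the TGF-beta group (0.0663) or replicate 2 of the other (0.183), and that of Gzmk without replicate 2 of the cultures lacking TGF-beta (0.107). Among the lineage factors, Runx3, which represses Cd4 and maintains Cd8 expression, rose by 0.89 ± 0.17 (213.9, 317.5 and 282.0 CPM, against 140.3 and 151.6 CPM), and the chromatin organiser Satb1 fell by 1.91 on the log2 scale (by 1.23 without control replicate 2).

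**Figure D3:**
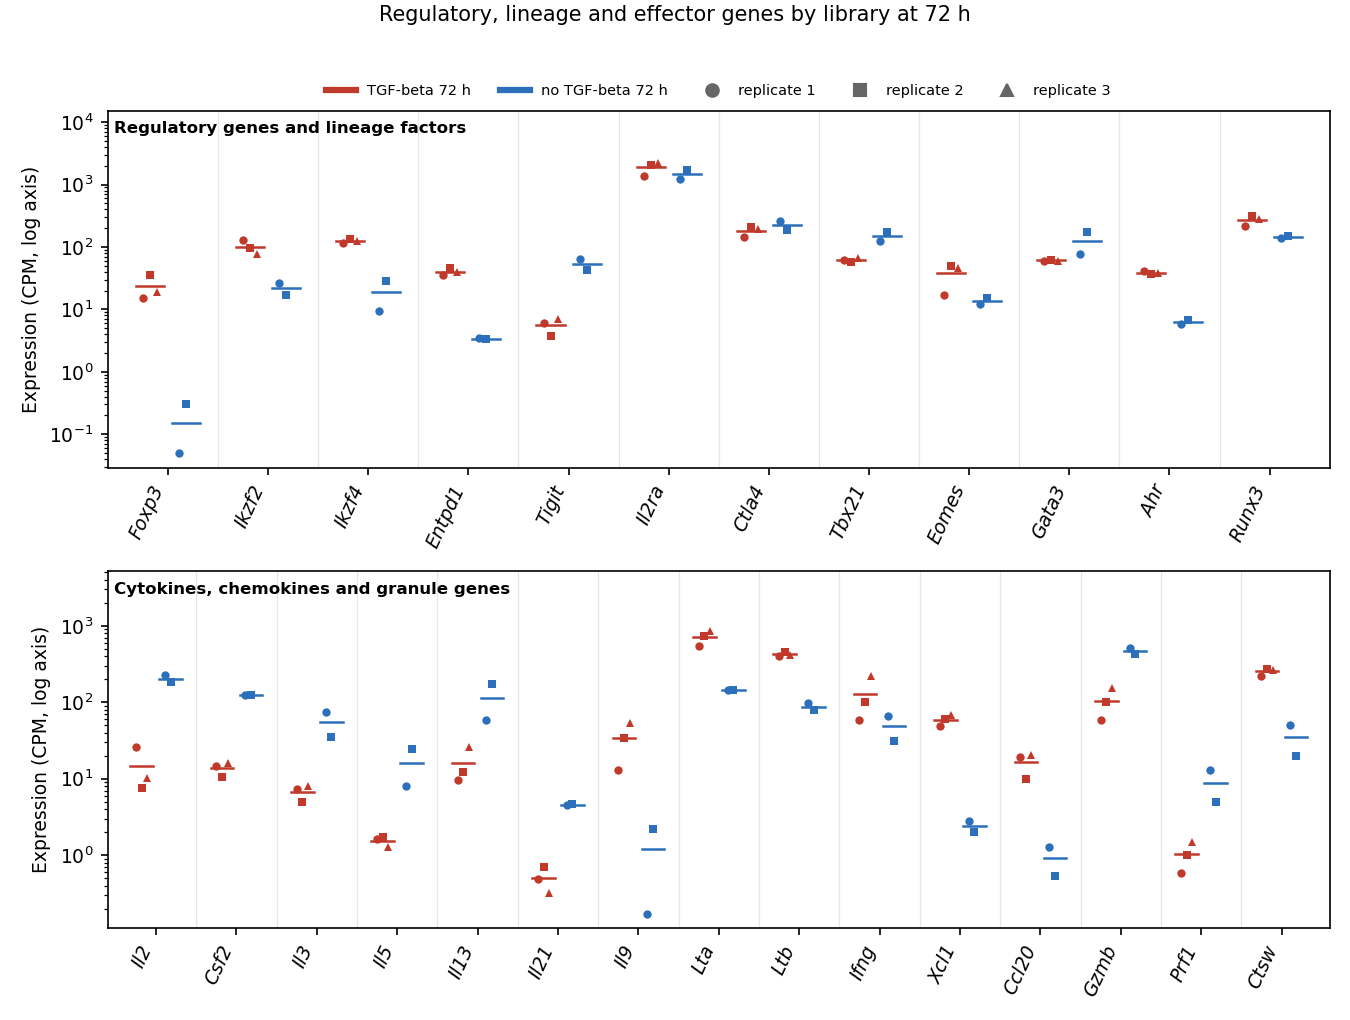
Expression in CPM on a log axis of regulatory and lineage genes (top) and of cytokine, chemokine and granule genes (bottom) at 72 h, by library, with TGF-beta in red on the left and without it in blue on the right. Libraries at 0 are drawn at 0.05 CPM. Il2, Csf2, Gzmb and Tigit are lower in all 3 libraries with TGF-beta, Foxp3, Xcl1 and Ltb higher, and Il2ra and Ctla4 overlap.

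Of 18 inhibitory receptors and ligands tested, 8 fell and 5 rose, with a median of -0.57, and the counts were the same without both replicate 1 libraries. Lag3 had 90.7, 45.5 and 44.1 CPM with TGF-beta, against 344.5 and 175.7 CPM without it (-2.11 ± 0.35), Btla had 73.8, 50.2 and 60.0 CPM, against 230.1 and 183.5 CPM (-1.75 ± 0.19), and Cd200 had 111.6, 104.4 and 110.8 CPM, against 350.7 and 283.9 CPM (-1.54 ± 0.15, adjusted p = 8.33e-08). Havcr2, also called Tim-3, fell by 1.88 on the log2 scale. The ecto-enzymes Entpd1 and Nt5e were among the 5 that rose. Of 21 costimulatory and TNF receptor family genes, 6 fell and 2 rose, with 6 higher under the replicate block and 1 higher on leaving out any library but TGF-beta replicate 1. Tnfrsf8, which encodes CD30, had 3.37, 4.77 and 3.09 CPM, against 33.0 and 70.2 CPM (-3.78 ± 0.28, adjusted p = 5.78e-10), and the costimulatory receptors Cd226 and Slamf6 fell by 2.10 and 2.59 on the log2 scale. Tnfrsf1b, the second TNF receptor, rose by 1.5 ± 0.16.

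Genes of naive and resting T cells rose in 8 of 22 cases and fell in 3 (5 without TGF-beta replicate 1). Igfbp4 had 174.3, 450.4 and 331.0 CPM with TGF-beta, against 4.71 and 28.6 CPM without it (4.25 ± 0.55), and Foxo1, the factor that keeps T cells quiescent, had 161.7, 178.0 and 179.8 CPM, against 80.4 and 71.6 CPM (1.19 ± 0.12, adjusted p = 1.18e-07). Early activation genes split 6 to 6 of 28 tested, and 6 rose and 13 fell with the replicate block and 3 fell without control replicate 1. The nuclear receptor Nr4a3 rose by 1.03 ± 0.19 and its relative Nr4a2 fell by 1.38. In the T cell receptor complex and its proximal kinases, 5 of 21 genes rose and 5 fell (9 rose with the replicate block, and 3 fell without control replicate 1), among them Plcg1, a phospholipase of the receptor pathway, at 0.82 ± 0.13, and Cd6 at -0.69 ± 0.08. Of 15 Bcl-2 family genes, 1 rose and 5 fell (2 rose without control replicate 1 or with the replicate block, and 3 fell without control replicate 2). The survival gene Bcl2 had 420.4, 598.5 and 604.5 CPM, against 117.1 and 185.2 CPM (1.84 ± 0.25, adjusted p = 5.74e-06), and its relatives Bcl2a1b and Bcl2a1d, between which reads may be split, fell by 1.28 and 1.65. The shares called were 42.9% of early activation genes, 47.6% of T cell receptor genes and 40.0% of Bcl-2 family genes, against 24.5% over all genes. With the replicate block they were 67.9%, 76.2% and 60.0%, against 45.4%.

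**Figure D4:**
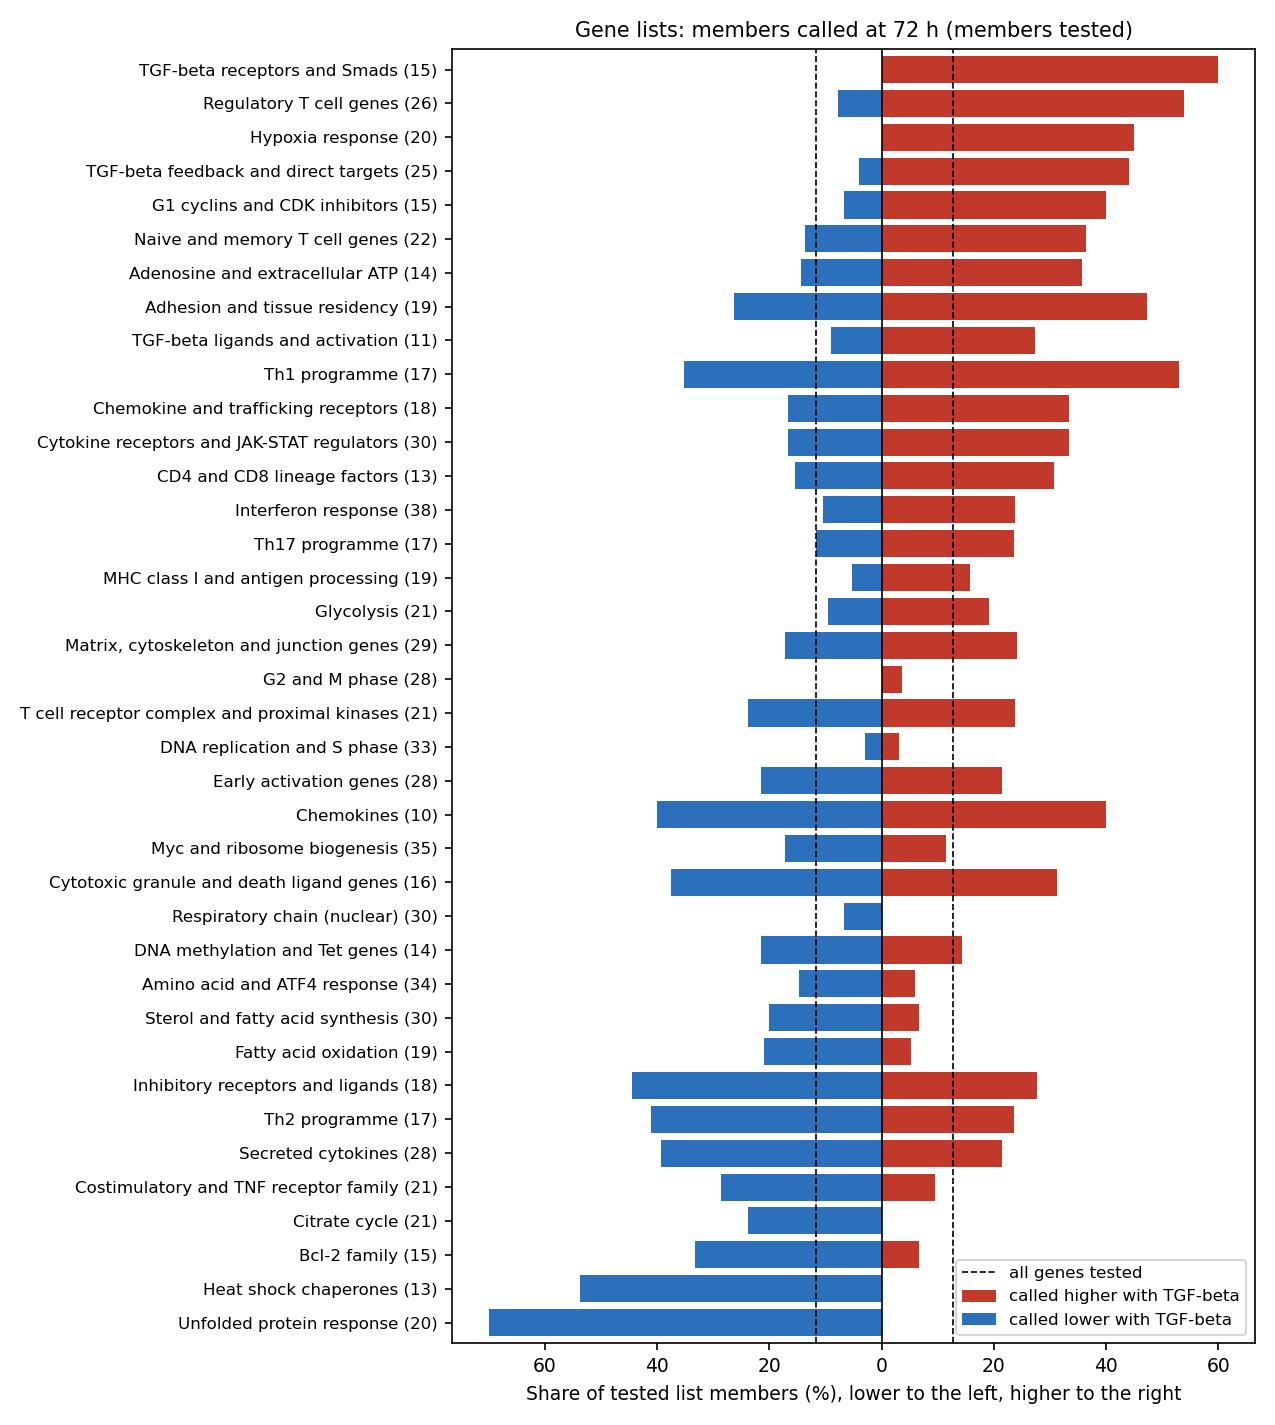
Share of the tested members of each gene programme that was called higher (red, to the right) or lower (blue, to the left) with TGF-beta at 72 h, in percent, with the number of members tested in parentheses and the lists of cell type markers left out. Dashed lines mark the shares over all genes tested, 12.8% higher and 11.7% lower. TGF-beta receptors and Smads stand at the top with 9 of 15 higher, and the unfolded protein response at the bottom with 14 of 20 lower.

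Stress and chaperone genes fell. Of 20 genes of the unfolded protein response, 14 fell and none rose, with a median of -0.67, and 10 fell without both replicate 1 libraries and 8 without control replicate 1. In the fit without TGF-beta replicate 1, 1 gene of the list was called higher. Pdia6, a disulphide isomerase of the endoplasmic reticulum, had 342.5, 268.6 and 305.9 CPM with TGF-beta, against 720.8 and 576.3 CPM without it (-1.09 ± 0.15, adjusted p = 1.31e-05), Creld2 fell by 1.21, Manf by 0.93 and the co-chaperone Dnajb11 by 0.63 on the log2 scale. Hspa5, the main chaperone BiP, had 1382, 896.8 and 974.6 CPM, against 2285 and 1840 CPM (-0.93 ± 0.26), a call lost without replicate 2 of the TGF-beta group (adjusted p = 0.0505) or replicate 1 of the other group (0.097). Of 13 heat shock chaperones, 7 fell and none rose, and 3 fell without both replicate 1 libraries or without control replicate 1, and 4 without TGF-beta replicate 2. The mitochondrial chaperone Hspd1 had 344.2, 368.5 and 441.0 CPM, against 705.1 and 924.1 CPM (-1.08 ± 0.17), and Hsp90aa1 fell by 0.89 on the log2 scale.

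Of 20 hypoxia response genes, 9 rose and none fell, with a median of 0.63, with 4 higher without control replicate 2, again 9 without both replicate 1 libraries and 14 with the replicate block. The oxygen sensor Egln3 had 376.4, 471.3 and 540.6 CPM with TGF-beta, against 214.4 and 199.4 CPM without it (1.16 ± 0.16, adjusted p = 8.17e-06), Egln1 rose by 0.70 ± 0.14, the mitophagy receptor Bnip3 by 1.01 ± 0.19 and Pdk1, the kinase that restrains pyruvate entry into the citrate cycle, by 0.67 ± 0.12. Of 21 glycolysis genes, 4 rose and 2 fell, among them the hexokinase Hk1 at 0.51 ± 0.11, the glucose transporter Slc2a1 at 0.61 ± 0.15 (adjusted p = 0.00422, and 0.0926 without replicate 2 of the cultures lacking TGF-beta) and the enolase Eno3 at -0.84 ± 0.16. The glycolysis genes called higher were 2 without control replicate 2 and 7 with the replicate block, and 1 was called lower on leaving out any library but TGF-beta replicate 3. The share of glycolysis genes called was 28.6%, near the 24.5% over all genes tested. With the replicate block it was 42.9%, against 45.4% over all genes. Of 21 citrate cycle genes, 5 fell and none rose, and of 30 nuclear respiratory chain genes 2 fell and none rose. These are shares of 23.8% and 6.67% called, near and below that over all genes. With the replicate block these lists gave 14 and 17 lower, and 2 citrate cycle genes higher, which are shares of 76.2% and 56.7%. Without control replicate 2, 1 citrate cycle gene was higher and 1 lower, and without TGF-beta replicate 1, 2 were higher and 2 lower. No respiratory chain gene was called without either of those libraries, and 1 was lower without control replicate 1. Of 30 genes of sterol and fatty acid synthesis, 6 fell and 2 rose, 16 and 3 with the replicate block and 1 each without both replicate 1 libraries or without control replicate 1. The share called was 26.7%, also near that over all genes, and 63.3% with the replicate block. Without TGF-beta replicate 1, 2 fell, and 1 rose on leaving out any other library. Scd1, the desaturase that makes oleic acid, went against the list at 301.2, 532.3 and 604.3 CPM, against 115.4 and 77.9 CPM (2.31 ± 0.33, adjusted p = 1.13e-05).

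Of 33 genes of DNA replication, 1 rose and 1 fell, and of 28 genes of the G2 and M phases 1 rose. These are shares of 6.06% and 3.57% called, below the 24.5% over all genes tested. With the replicate block 2 and 7 genes of these lists were higher and 4 of each lower, shares of 18.2% and 39.3%, against 45.4%. The rises were called in no fit that left out a library other than TGF-beta replicate 1, and the fall was lost without TGF-beta replicate 1 or control replicate 2. Regulators of G1 moved, with 6 of 15 higher and 1 lower (3 higher without control replicate 2, 2 lower without TGF-beta replicate 3 or control replicate 1, and 4 lower with the replicate block). The kinase Cdk6 had 379.0, 491.9 and 570.7 CPM with TGF-beta, against 237.1 and 212.2 CPM without it (1.10 ± 0.14), its inhibitor Cdkn2c rose by 1.14 ± 0.25, the pocket protein gene Rbl1 by 0.77 ± 0.10, and the cyclin Ccnd2 fell by 0.64 on the log2 scale. Myc was not called, at 146.0, 280.7 and 313.8 CPM, against 228.2 and 434.6 CPM (-0.43 ± 0.30), and was called lower with the replicate block. Of 35 Myc and ribosome biogenesis genes, 4 rose and 6 fell, with a median of -0.46, and 28 fell with the replicate block. The share called was 28.6%, near the 24.5% over all genes tested, and 91.4% with the replicate block, against 45.4%. The number that fell was 20 without control replicate 1, 11 without TGF-beta replicate 3, 3 without TGF-beta replicate 2 and 0 without control replicate 2. The Myc antagonists Mxd1 and Mxd3 rose by 1.16 ± 0.19 and 1.21 ± 0.24. Of 38 interferon response genes, 9 rose and 4 fell, 18 and 11 with the replicate block and 5 and 4 without both replicate 1 libraries or without control replicate 1. Without TGF-beta replicate 3 or control replicate 2, 2 fell. The share of interferon genes called was 34.2%, and 76.3% with the replicate block, against 24.5% and 45.4% over all genes. The antiviral exonuclease Isg20 rose by 1.74 ± 0.26 and the synthetase Oas3 fell by 2.26.

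The same contrast was measured at 24 h, in 3 libraries with TGF-beta and 3 without, none of them shared with the 72 h comparison. At 24 h 1625 genes were called (11.3%), 1144 higher (7.96%) and 481 lower (3.35%). In the same direction at both times were 905 genes, which is 25.7% of the 72 h calls and 55.7% of the 24 h calls, and in opposite directions 38. The difference of the effects (72 h minus 24 h) was called for 823 genes (5.73%), with 344 more positive (2.39%) and 479 more negative (3.33%) at 72 h, and for 2794 genes (19.4%) with the replicate block. It was called for 534 genes without replicate 2 of the TGF-beta group at 72 h and for 545 with the 4 groups fitted on their own.

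At 24 h, 7 of the 15 receptors and Smads and 10 of the 25 feedback genes had risen, and the difference between the times was called for 2 genes of each list. Tgfbr1 rose by 2.68 ± 0.14 at 24 h, a difference of -0.30 ± 0.20 that was not called (adjusted p = 0.471). Itgae rose by 4.73 ± 0.41 at 24 h and Foxp3 by 5.29 ± 0.39, and neither difference was called (1.04 ± 0.74 and 1.80 ± 1.10). With the replicate block on the 4 groups alone the difference of Foxp3 was called (2.01, adjusted p = 0.0275). These intervals are wide, so equal effects are not shown. Ski rose more at 24 h, by 1.64 ± 0.16 (difference -1.04 ± 0.24, adjusted p = 0.00784, and 0.0777 without replicate 2 of the 72 h cultures lacking TGF-beta). Tgfbr3 and Acvr1b rose more at 72 h (differences 0.88 ± 0.17 and 0.87 ± 0.17).

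Epas1 reversed between the times. At 24 h it averaged 3.99 ± 1.76 CPM with TGF-beta and 1.76 ± 0.22 CPM without it (SD, n = 3 each), a rise of 1.16 ± 0.25, and the difference from 72 h was -5.41 ± 0.34 (adjusted p = 6.17e-10). With TGF-beta it was at 3.88 to 4.45 CPM at 72 h as well, and without TGF-beta at 75.6 and 86.0 CPM. Eomes reversed the other way, with 11.4 ± 3.66 CPM with TGF-beta and 101.4 ± 11.0 CPM without it at 24 h (-3.16 ± 0.46, difference 4.61 ± 0.69, adjusted p = 0.000212). Fam213a and Tbkbp1, a TBK1 binding protein, fell at 72 h by 3.25 and 2.19 and were not called at 24 h (-0.19 ± 0.21 and 0.12 ± 0.15). Maf, a factor of Th17 and follicular cells, rose by 4.13 ± 0.26 at 24 h and 0.98 ± 0.27 at 72 h (difference -3.16 ± 0.36), and its 72 h call was lost without replicate 2 of the cultures lacking TGF-beta (adjusted p = 0.144).

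Other genes changed more at 72 h by the test of the difference. Tigit, which fell at 72 h, was at -0.67 ± 0.25 at 24 h and not called (difference -2.60 ± 0.38, adjusted p = 0.000139). Itgb1 fell by 0.40 at 24 h and by 1.59 at 72 h (difference -1.19 ± 0.14). Xcl1, Drc1 and Tead1 rose more at 72 h, with differences of 3.38 ± 0.34, 5.34 ± 0.91 and 4.09 ± 0.85, and that of Drc1 was 8.23 without control replicate 2 of 72 h. Tbx21 and Il18r1 also differed (-0.91 ± 0.21 and 2.91 ± 0.65), with adjusted p of 0.128 and 0.0524 without replicate 2 of the 72 h cultures lacking TGF-beta. Of the unfolded protein response genes 2 fell at 24 h, and 7 had a called difference, all towards lower at 72 h. These include Creld2, Pdia6 and Manf (-1.21 ± 0.27, -0.98 ± 0.21 and -0.87 ± 0.19), with adjusted p of 0.0578, 0.0624 and 0.0567 without replicate 1 of those cultures. Of the hypoxia genes 1 rose at 24 h, and 4 had a called difference towards higher at 72 h, Egln1 and Pdk1 among them (0.84 ± 0.18 and 0.82 ± 0.16). Gzmb fell by 3.73 at 24 h, and its difference was not called (1.56 ± 0.53, adjusted p = 0.0879), except with the replicate block on the 4 groups alone (1.2, adjusted p = 0.0316).

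**Figure D5:**
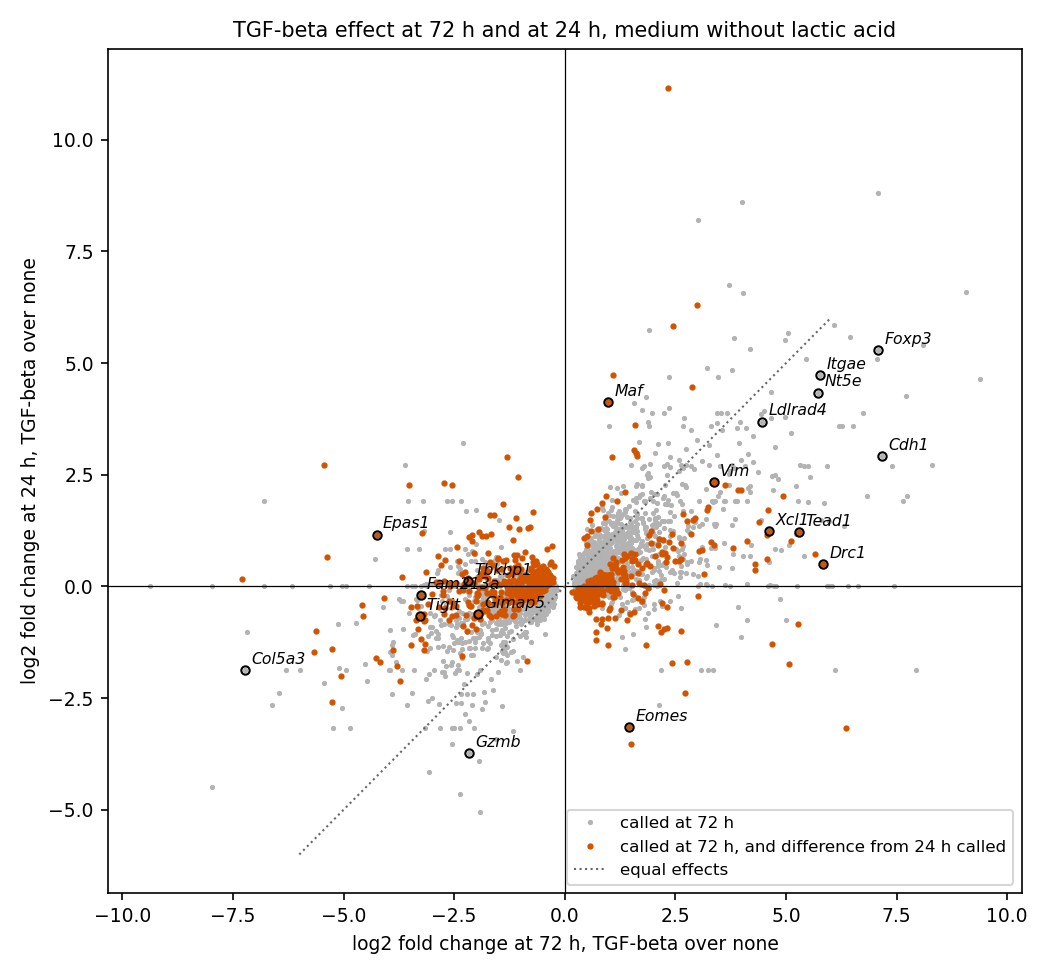
Log2 fold change of TGF-beta over no TGF-beta at 72 h (x axis) and at 24 h (y axis), in medium without lactic acid, for the 3517 genes called at 72 h. Orange points are the 674 genes whose difference between the times was also called, and the dotted line marks equal effects. Itgae and Ldlrad4 lie near the line, and Epas1 and Eomes lie in opposite quadrants.

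At 72 h the contrast was also measured in medium with 10 mM lactic acid, in 3 libraries with TGF-beta and 3 without, again none of them shared. There 6471 genes were called (45%). Of the 3517 genes called without lactic acid, 3106 (88.3%) were called in the same direction with it, which is 48% of the calls in that medium. The difference of the effects (without minus with lactic acid) was called for 15 genes (0.104%) by edgeR, with 1121 genes at an unadjusted p under 0.05, for 652 genes (4.54%) with the replicate block, for 52 by DESeq2 and for 2 without both replicate 1 libraries. Gimap5 and Gimap3, GTPases of lymphocyte survival with near-identical stretches between which reads may be split, fell more without lactic acid. Gimap5 had 18.7, 22 and 24.0 CPM with TGF-beta, against 90.1 and 78.1 CPM without it (-1.96 ± 0.10), and in lactic acid 43.7 ± 3.29 CPM with TGF-beta and 76.9 ± 3.99 CPM without it (SD, n = 3 each; -0.82 ± 0.09). The difference was -1.15 ± 0.14 (adjusted p = 0.000204). Gimap3 fell by 1.81 without lactic acid and was at -0.12 ± 0.16 with it (difference -1.70 ± 0.24). Lad1, a basement membrane filament protein gene, fell by 0.99 without lactic acid and by 2.73 with it (difference 1.74 ± 0.23), and the sugar transporter Slc2a6 by 0.81 and 2.32 (difference 1.51 ± 0.23). Tle1, a Groucho co-repressor, rose by 1.94 ± 0.16 without lactic acid and by 0.59 ± 0.14 with it (difference 1.35 ± 0.21). The differences of Lad1, Slc2a6 and Tle1 were not called without both replicate 1 libraries (adjusted p = 0.0649, 0.115 and 0.0649). With the 4 groups fitted on their own, the differences of Gimap5, Lad1, Slc2a6 and Tle1 were not called (0.134 to 0.37), nor was that of Tle1 with the 72 h libraries alone (0.0576).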

How the data were processed

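The labels' protocols describe strand-specific libraries of polyadenylated RNA read as single 65-base reads. The submitters' processing notes name STAR 2.7.3a, HTSeq 0.12.4, DESeq2 1.30.1 and the build GRCm39. The authors deposited whole-number counts per gene without normalization. Neither the strand setting of the counting nor its annotation release is given in the sources used here, which leaves overlapping and antisense genes uncertain. Of 55414 identifiers, 52081 matched a symbol in an annotation of another build, used for names alone. Entries of no gene stayed out of library sizes: in the 5 libraries, 15.0% to 16.0% of entries had low alignment quality, 5.77% to 7.29% lay in no gene and 1.02% to 1.07% were ambiguous.

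From these counts, all 29 libraries in 10 groups were fitted without covariates in edgeR 4.0.16 (R 4.3.3), with TMM scaling, filterByExpr (minimum count 10, minimum total 15), glmQLFit and glmQLFTest. P-values were adjusted by Benjamini-Hochberg over the 14375 genes kept. The SE is the absolute log2 fold change divided by the square root of F. The fits were also run on simulated data whose means held no difference between replicate numbers. That run therefore cannot speak to the spread between replicate 1 and the other replicates. The alternatives comprised DESeq2 1.42.0, scaling by RLE, fits without a filter or with fewer libraries, a replicate block within each time point and leaving out each library. Leaving out both replicate 1 libraries was chosen after seeing the data. The replicate numbers were taken to pair the libraries, since deviations of same-numbered libraries correlated at 0.108 to 0.772 in all 10 pairs of 72 h groups that share 3 numbers. Values for different numbers overlap that range. Replicate 2 with lactic acid and no TGF-beta, for instance, correlated at 0.398 with TGF-beta replicate 3. The pairing of replicates 2 and 3, and so the block, is therefore less certain than the separation of replicate 1. The groups compared here share only 2 numbers, and their second library without TGF-beta correlated at 0.423 with TGF-beta replicate 2 and at 0.506 with replicate 3, so these 5 libraries set replicate 1 apart and do not pair replicates 2 and 3.

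The members and lists were chosen with earlier results of these data known. The rule names the 10 largest rises and falls, up to 4 called members of lists with at least 25% of genes called, members of the 3 TGF-beta lists, the 5 smallest p-values of each difference and a panel. Genes outside it, chosen after their values were seen, are Btla, Ctla4, Ebi3, Eomes, Gzmk, Havcr2, Hspa5, Ikzf4, Il3, Itga4, Itgb7, Klf2, Lag3, Maf, Prf1, Stat4, Zfp683 and the marker genes of other cell types. Some genes that the rule names are not reported here.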

Additional observations from a re-analysis of the deposited data

Results flagged for a closer look

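Genes whose TGF-beta effect differed between conditions by a test of the difference itself are listed here. Between 72 h and 24 h, without lactic acid, the difference was called for 823 genes. Among the 5 with the smallest p-values were Epas1 (difference of log2 fold changes, 72 h minus 24 h, -5.41), Fam213a (-3.06), Tbkbp1 (-2.31) and Gimap5 (-1.34).

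Between media at 72 h, without minus with lactic acid, it was called for 15 genes. The 5 with the smallest p-values were Gimap5 (-1.15), Lad1 (1.74), Gimap3 (-1.70), Slc2a6 (1.51) and Tle1 (1.35). Groups of 2 and 3 libraries are too small to test a single library as an outlier.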

How the results depend on the processing

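DESeq2, RLE scaling and a fit without the filter moved the number of genes called at 72 h by less than 1.5 times, and the sign flipped for none of the 3517 called genes under them. Fitted on the 5 libraries alone, 1058 genes were called (635 higher, 423 lower, and 456 and 331 of at least 2-fold). The replicate block within each time point gave 6526 (3068 higher, 3458 lower) and lost no call. The block on the 5 libraries alone gave 4601 and kept 3043 of the 3517 calls. Leaving out 1 library gave 1162 to 1733 genes called higher, the lowest without replicate 2 of the cultures lacking TGF-beta.

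The difference between 72 h and 24 h was called for 545 genes in the 4 groups alone, for 2794 and 2526 with the replicate block (all libraries, and those groups alone), and for 534 to 1007 with 1 library left out. The effect at 24 h gave 3856 genes in its groups alone and 4562 and 5478 with the block. The difference between media, 15 genes, was the least stable count: 52 by DESeq2, 47 without the filter, 1 in its groups alone, 4 in the 72 h libraries, 652 and 77 with the block, 2 without both replicate 1 libraries and 6 to 30 with 1 library left out. The cause of these shifts was not tested.

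Of the genes named, 3 that were not called changed sign. Ctla4 ran from -0.496 to 0.012 with 1 library left out and was at 0.143 without both replicate 1 libraries, Myc ran from -0.798 to 0.102 and Cd8b1 from -0.927 to 0.058. The group without TGF-beta holds 2 libraries that differ from each other, and leaving out either ended calls, among them those of Tgfbr2 and Gata3 without replicate 2 and of Ltbp3 without replicate 1. Genes with few counts, such as Ccn2 and Smad6, are limited by depth.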
